A study of Mus musculus with 23 samples.

Results

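The major histocompatibility complex (MHC) genes described here are 8 H2 genes of mouse chromosome 17 that lie 1.62 to 3.0 Mb (from their midpoints) from Zfp57: the class I genes H2-D1, H2-L, H2-K1 and H2-Q4, and the class II genes H2-Ab1, H2-Aa, H2-Eb1 and H2-DMa. They were chosen by name and position, with earlier results of these data known, and are 8 of the 26183 genes in the count tables. RNA was sequenced from 23 whole E13.5 mouse embryos (E for embryonic day), with 1 library per embryo. The embryos were hybrids with a 129 mother and a father mainly of DBA/2J background, and carried one of 3 genotypes named by maternal (M) and zygotic (Z) Zfp57. There were 6 female and 4 male M+Z+ embryos, 3 female and 3 male M-Z+ embryos, and 4 female and 3 male M-Z- embryos. In all 7 M-Z- embryos the class II genes H2-Ab1, H2-Aa and H2-Eb1 had 0 reads with the variants of the father's strain, DBA/2J, as they also had in 4 of the 6 M+Z+ females but in no M+Z+ male and no M-Z+ embryo. Total H2-D1 was higher in M-Z- than in M+Z+ males by log2 0.92, whereas the difference in females was log2 -0.04 and was not called. The difference between the sexes in this change was not called either (edgeR quasi-likelihood test, adjusted p = 0.726).

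Zfp57 encodes a zinc finger protein that maintains DNA methylation at imprinted regions. The M-Z+ and M-Z- embryos had Zfp57-/- mothers, so that the egg brought no Zfp57, and M-Z- embryos received the deleted allele from their father as well. The fathers were Zfp57+/- (DBA*) mice, made by 12 backcrosses to DBA/2J of an allele that was deleted in 129 mice. The deletion was present in every cell and not limited to a tissue. Titles read Zfp57-/+ both for M-Z+ and for M+Z+ samples, while the count tables head the M+Z+ columns as wild type, and the study writes M+Z+ as Zfp57+/- in some places and as Zfp57+/+ in others. Its matings used Zfp57+/- or Zfp57-/- 129 mothers with these fathers, so that M+Z+ embryos had mothers carrying a normal allele. Whether a given M+Z+ embryo carried a deleted allele, and from which parent, was not given per embryo. A selected allele takes linked genes of its strain of origin along through backcrossing. In M-Z- embryos the absence of Zfp57 and the presence of the father's chromosome with the deleted allele go together, and their effects on H2 genes cannot be told apart.

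MHC class I molecules show peptides made inside a cell to T cells and natural killer cells, and consist of a heavy chain, encoded by genes such as H2-K1 and H2-D1, and beta-2 microglobulin, encoded by B2m. Class II molecules are pairs of an alpha and a beta chain on antigen-presenting cells, and show peptides taken up from outside. H2-Aa encodes the I-A alpha chain, H2-Ab1 the I-A beta chain and H2-Eb1 the I-E beta chain, while H2-DMa encodes a chain of the H2-DM molecule, which helps to exchange the peptide on class II molecules. H2-Q4 encodes a nonclassical class I heavy chain. The genes are among the most polymorphic of the mouse: 129 mice carry a b-type haplotype, like the C57BL/6J reference genome, and DBA/2J mice the d haplotype. H2-L is a class I gene of the d haplotype that b-type mice lack.

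H2-D1 and H2-L could not be measured separately. The mm9 annotation used by the files places H2-L at chr17:35400068-35403675 on the plus strand, within the span of H2-D1 at chr17:35400039-35404442 on the same strand. Of the 1064 exon bases of H2-L, 1060 (99.6%) lie within the exons of H2-D1, and 3 of the gaps between its 12 exon blocks are 1 base long. The start of the shared stretch is printed because it shows how both models use the same bases. It runs over 64 bases of exon 1 of H2-D1, mm9 chr17:35400068-35400131, plus strand, with the 3 bases that the H2-L model skips in capitals.
H2-D1 exon 1: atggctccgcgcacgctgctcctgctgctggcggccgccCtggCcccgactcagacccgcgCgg

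Reads that overlapped several genes were counted for each of them, so most H2-L reads were also H2-D1 reads. Allele-assigned reads of both genes were equal in 46 of 46 embryo and allele columns. Total counts of H2-L were 72.8 to 86.6% of those of H2-D1, and H2-D1 had the higher count in 23 of 23 embryos. LOC547349, a locus on the same strand, shares 276 exon bases with both genes and held 38 to 117 reads per embryo. Values of H2-L therefore repeat those of H2-D1 and are not a separate measurement. No other member shared exon bases with another gene of the annotation.

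Promoter sequences are shown for 4 of the members with an entry in the RefSeq table (GRCm38.p6, 250 bases before to 50 after the start), because class I genes are known for a shared upstream arrangement and class II genes for another. Of the 8 members, 6 had an entry. Capitals mark 4 motifs that were chosen after the promoters had been seen, each searched on both strands: GGGATTCCC, the core of a Rel (NF-kappa-B) binding sequence known from class I promoters, TTTCACTTC, an interferon-stimulated response element core, ATTGG, the CCAAT box read on the other strand, and TGACG, the core of a cyclic AMP response element. The H2-D1 promoter is chr17:35262844-35263143 on the plus strand, that of H2-K1 chr17:34000298-34000597 on the minus strand (the first of 2 listed starts), that of H2-Q4 chr17:35379367-35379666 on the plus strand, and that of H2-Aa chr17:34287774-34288073 on the minus strand.
H2-D1: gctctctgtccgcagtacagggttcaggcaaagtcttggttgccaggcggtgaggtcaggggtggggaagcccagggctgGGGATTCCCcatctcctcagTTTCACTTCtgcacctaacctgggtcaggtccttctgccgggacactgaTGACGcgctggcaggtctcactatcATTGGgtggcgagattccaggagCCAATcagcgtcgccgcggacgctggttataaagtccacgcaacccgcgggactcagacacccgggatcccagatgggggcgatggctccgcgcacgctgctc
H2-K1: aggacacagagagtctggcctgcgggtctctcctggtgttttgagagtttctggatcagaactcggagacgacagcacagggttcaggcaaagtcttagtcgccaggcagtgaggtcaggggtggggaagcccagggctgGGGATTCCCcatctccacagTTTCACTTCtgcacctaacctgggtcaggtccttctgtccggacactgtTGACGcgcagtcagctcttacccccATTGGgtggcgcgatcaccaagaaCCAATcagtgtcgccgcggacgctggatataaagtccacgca
H2-Q4: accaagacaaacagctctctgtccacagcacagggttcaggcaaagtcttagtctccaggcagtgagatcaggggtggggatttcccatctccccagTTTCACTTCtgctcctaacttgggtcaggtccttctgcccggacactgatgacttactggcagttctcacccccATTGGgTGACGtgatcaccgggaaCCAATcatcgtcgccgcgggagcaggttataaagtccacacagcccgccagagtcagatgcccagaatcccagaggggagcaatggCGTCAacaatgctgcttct
H2-Aa: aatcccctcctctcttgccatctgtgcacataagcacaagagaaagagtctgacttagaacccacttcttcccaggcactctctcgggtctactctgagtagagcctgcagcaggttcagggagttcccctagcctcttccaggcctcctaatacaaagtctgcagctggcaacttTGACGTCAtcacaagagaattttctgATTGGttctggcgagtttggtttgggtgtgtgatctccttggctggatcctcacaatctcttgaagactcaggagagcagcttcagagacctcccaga

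GGGATTCCC was found in the promoters of H2-D1 (first base at -170 from the start) and H2-K1 (-110), and in 100 of all 27025 promoters (0.370%). TTTCACTTC followed it at -150 in H2-D1 and -90 in H2-K1 and was also found at -153 in H2-Q4, whereas 0.522% of all promoters held it. ATTGG was found in H2-D1, H2-K1, H2-Q4, H2-Aa and H2-Eb1, and in 37.9% of all promoters. TGACG was found in H2-D1, H2-K1, H2-Q4 and H2-Aa, and in 21.0% of all promoters. The H2-DMa promoter held none of the 4 letter strings. A match describes the reference sequence only, and no binding was measured.

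The count tables held 15.2 M to 24.1 M counts per embryo (M for mega, median 17.4 M), and 2.46 M to 3.94 M reads per embryo were assigned to a parental allele. Zfp57 itself ranged from 52.7 to 99.1 CPM (counts of the gene per M counts of the library) in M+Z+ females and from 31.9 to 34.0 in M-Z- females, and from 68.0 to 88.8 in M+Z+ males and from 25.5 to 35.3 in M-Z- males. It was lower in M-Z- than in M+Z+ embryos by log2 -1.02 in females and -1.33 in males (edgeR quasi-likelihood test, adjusted p = 0.0004 and 4.7e-05), with no overlap of the groups. The tables give 1 count per gene, so reads from the part of Zfp57 that was not deleted could not be set apart. M-Z+ embryos had 66.6 to 78.6 CPM over both sexes and were not called against M+Z+ embryos. No read of Zfp57 was assigned to an allele. The male M-Z- embryos differed among themselves: without replicate 3, 899 genes in place of 65 were called between male M-Z- and M+Z+ embryos, and 51 to 92 without replicate 2 or 1.

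Per length, H2-K1 and H2-D1 were the most abundant of the 7 members that can be measured separately. On the TPM scale (transcripts of a gene per M transcripts, from counts divided by exon length), group means were 19.8 to 27.1 for H2-K1, 15.7 to 28.1 for H2-D1, 7.51 to 11 for H2-Q4, 2.68 to 4.51 for H2-DMa, 2.05 to 2.88 for H2-Ab1, 0.293 to 1.55 for H2-Aa and 0.306 to 0.844 for H2-Eb1. H2-L, whose shorter model takes mostly the reads of H2-D1, stood at 21.1 to 36.5 TPM, above H2-D1 in each group. The ranges of H2-K1 and H2-D1 overlapped in both M+Z+ and both M-Z- groups, while in the M-Z+ embryos of either sex H2-K1 was above H2-D1 (21.97 to 27.7 against 17.5 to 22.4 TPM over both sexes, with no overlap within a sex). H2-DMa and H2-Ab1 likewise overlapped outside the M-Z+ groups, and H2-Aa and H2-Eb1 outside the female M-Z+ and male M+Z+ groups. Every embryo had more TPM of H2-K1 and of H2-D1 than of H2-Q4. At the depth of each library 3 counts correspond to at most 0.198 CPM, and H2-Aa and H2-Eb1 had only 1 to 18 counts per embryo.

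**Figure D1:**
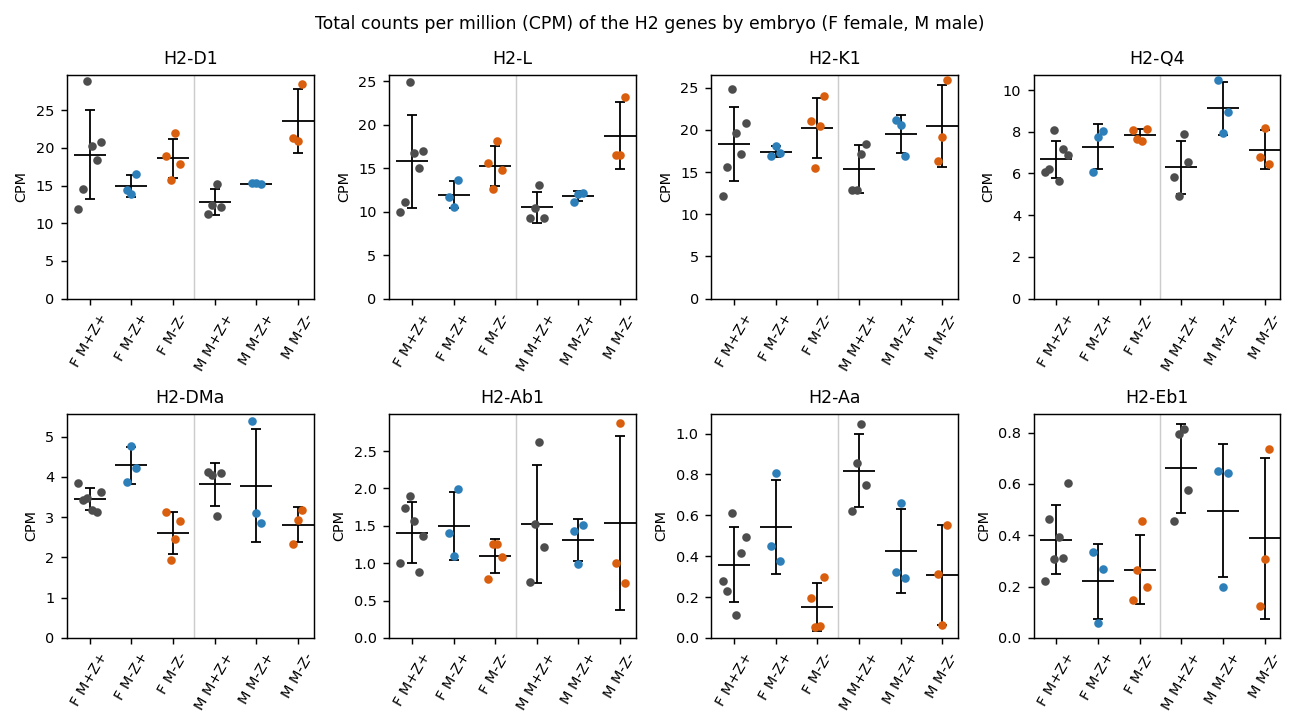
Total levels in CPM (vertical axes, each from 0) of the 8 H2 genes in each of the 23 embryos, by sex and genotype, where points are embryos and black bars the group mean ± SD. In males, the 3 M-Z- embryos had 20.8 to 28.4 CPM of H2-D1, above the 11.2 to 15.2 CPM of the 4 M+Z+ embryos.

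The first comparison asked whether total expression of the H2 genes differed between genotypes. H2-D1, a classical class I heavy chain gene, was higher in M-Z- males than in M+Z+ males. Its levels were 21.3, 20.8 and 28.4 CPM in the 3 male M-Z- embryos, 11.2, 12.4, 15.2 and 12.2 CPM in the 4 male M+Z+ embryos, and 15.3, 15.3 and 15.1 CPM in the 3 male M-Z+ embryos. Every M-Z- male was above every other male. The increase over M+Z+ was log2 0.92 (SE 0.126, adjusted p = 0.0033), and H2-L, which counts mostly the same reads, rose by log2 0.87 (SE 0.148, adjusted p = 0.0201). Calls required a log2 change of at least 0.5 in size and an adjusted p under 0.05 over the whole table, and 2 of the 8 members were called here, beside 0.39% of all 16664 genes tested (0.264% called as higher in M-Z-). The call for H2-D1 held without each single library, with log2 changes of 0.79 (without M-Z- replicate 3) to 1.02, whereas that for H2-L was lost without M+Z+ replicate 1 (adjusted p = 0.105) or replicate 2 (adjusted p = 0.0807). Against male M-Z+ embryos the difference of H2-D1 was log2 0.68 (SE 0.136, adjusted p = 0.101) and was not called, although the groups did not overlap. Reads that differ from the mm9 sequence may align less often, and the part of this in the H2-D1 values was not tested.

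In females the H2-D1 levels of the genotypes overlapped. Its levels were 11.9 to 28.8 CPM in the 6 M+Z+ females (median 19.3), 14.4, 13.9 and 16.6 CPM in the M-Z+ females, and 18.9, 15.7, 21.9 and 17.9 CPM in the M-Z- females. The M+Z+ females alone spanned the range of the other groups. The difference between M-Z- and M+Z+ females was log2 -0.04 (SE 0.170, adjusted p = 0.944). The difference between the sexes in this effect was log2 -0.95 (female minus male, SE 0.247, adjusted p = 0.726), so that a sex difference was not established, and no gene at all was called for one by edgeR (0% of 17139 genes, 1107 of them at an unadjusted p under 0.05, and 0 by DESeq2).

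The 6 M+Z+ females differed among themselves. H2-D1 was at 11.9 and 14.5 CPM in replicates 1 and 2, and at 28.8, 20.2, 18.3 and 20.8 CPM in replicates 3 to 6. H2-K1 was at 12.2 and 15.6 CPM in replicates 1 and 2 and at 24.8, 19.6, 17.1 and 20.8 CPM in the other 4. Replicates 1 and 2 were thus the lowest of the 6 for both genes. With only these 2 embryos as M+Z+, a choice made after seeing the data, M-Z- females were higher by log2 0.48 for H2-D1 and 0.53 for H2-K1, neither called (adjusted p = 0.144 for each), and the sex difference for H2-D1 became log2 -0.43. The 4 other M+Z+ females stand under 2 repeated header names in the allelic table, as described with the allele reads.

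H2-K1, the other classical class I heavy chain gene here, was not called in any comparison of total expression. In males it was at 12.9, 12.9, 17.2 and 18.3 CPM in M+Z+ embryos, 21.1, 20.6 and 16.95 CPM in M-Z+ embryos, and 16.4, 19.1 and 25.9 CPM in M-Z- embryos. The groups overlapped. The difference between M-Z- and M+Z+ was log2 0.46 in males (SE 0.164, adjusted p = 0.197) and 0.14 in females (SE 0.148, adjusted p = 0.701). M-Z- females had 21.1, 15.5, 20.4 and 24.03 CPM and M-Z+ females 16.9, 18.1 and 17.2 CPM.

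H2-Q4, a nonclassical class I gene, was at 5.65 to 8.08 CPM in M+Z+ females (median 6.56), at 6.06, 7.77 and 8.05 CPM in M-Z+ females, and at 8.07, 7.68, 7.54 and 8.11 CPM in M-Z- females. In males it was at 5.81, 4.90, 7.90 and 6.57 CPM in M+Z+, 10.47, 7.92 and 8.97 CPM in M-Z+, and 6.80, 8.19 and 6.44 CPM in M-Z- embryos. Only the male M-Z+ embryos were all above the M+Z+ embryos of their sex, by log2 0.51 (SE 0.178, adjusted p = 0.605). No member was called in that comparison (0.048% of all genes). Summed over H2-D1, H2-K1 and H2-Q4, class I levels were 29.9 to 40.3 CPM in male M+Z+, 41.1 to 46.9 CPM in male M-Z+ and 44.5 to 60.7 CPM in male M-Z- embryos, and 30.1 to 61.7, 37.3 to 41.9 and 38.9 to 50.05 CPM in the females of the same genotypes.

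**Figure D2:**
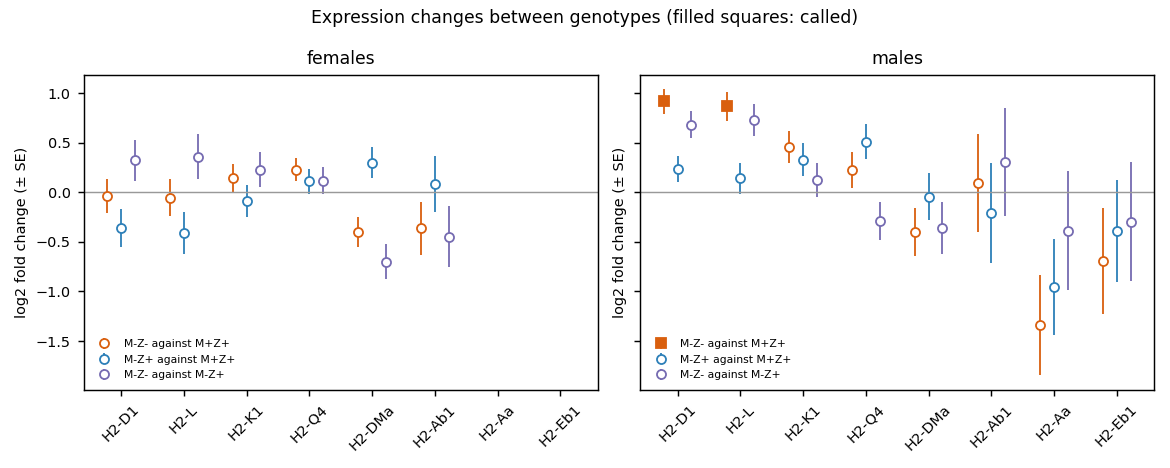
Log2 fold changes (vertical axis, points with ± SE) of the H2 genes in the 3 genotype comparisons of females (left) and males (right), with filled squares for calls. H2-D1 (0.92) and H2-L (0.87) in male M-Z- against M+Z+ embryos are the 2 calls, and H2-Aa and H2-Eb1 were too low to be tested in females.

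No class II gene was called for a change of expression. H2-DMa, the peptide exchange chain, was the most abundant of them and was lowest in M-Z- females, with 3.13, 1.95, 2.46 and 2.92 CPM against 3.87, 4.78 and 4.21 CPM in M-Z+ females and 3.13 to 3.84 CPM in M+Z+ females (median 3.46). M-Z- and M-Z+ females did not overlap. Their difference was log2 -0.70 (SE 0.175, adjusted p = 0.155), and that against M+Z+ females log2 -0.40 (SE 0.153, adjusted p = 0.221). In males H2-DMa was at 4.11, 4.04, 3.02 and 4.09 CPM in M+Z+, 5.40, 3.10 and 2.85 CPM in M-Z+ and 2.33, 2.93 and 3.19 CPM in M-Z- embryos, a difference of log2 -0.40 between M-Z- and M+Z+ (SE 0.243, adjusted p = 0.420). The shares of all genes called in the comparisons without a call among the members were 0.563% (M-Z- against M+Z+ females), 0.0593% (M-Z+ against M+Z+ females), 0.196% (M-Z- against M-Z+ females) and 0.15% (M-Z- against M-Z+ males). At an unadjusted p under 0.05 there were 1, 0, 1 and 2 members in these 4 comparisons and 1 in M-Z+ against M+Z+ males, and DESeq2 called 2 members (H2-D1 and H2-L) in M-Z- against M-Z+ males and none in the other 4.

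H2-Ab1, the I-A beta chain gene, was at 0.886 to 1.90 CPM in M+Z+ females (median 1.47), 1.40, 1.09 and 2.0 CPM in M-Z+ females and 0.783, 1.26, 1.26 and 1.09 CPM in M-Z- females. In males it was at 0.748, 1.53, 2.62 and 1.21 CPM in M+Z+, 1.43, 0.990 and 1.51 CPM in M-Z+, and 1.01, 2.87 and 0.736 CPM in M-Z- embryos. All genotypes overlapped in both sexes. The 95% interval of the male difference between M-Z- and M+Z+ ran from log2 -0.87 to 1.06, so that changes within it were not detectable at 12 to 47 counts per embryo.

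H2-Aa, the I-A alpha chain gene, had 13 to 18 counts in male M+Z+ embryos (0.623, 0.857, 1.05 and 0.749 CPM) and 5, 1 and 9 counts in male M-Z- embryos (0.315, 0.0611 and 0.552 CPM), with 5, 10 and 5 counts in male M-Z+ embryos. Male M-Z- and M+Z+ embryos did not overlap, and the difference was log2 -1.34 (SE 0.509, adjusted p = 0.216). In females it had 2 to 10 counts in M+Z+, 8, 14 and 7 counts in M-Z+ and 4, 1, 1 and 6 counts in M-Z- embryos, too few to be tested. H2-Eb1, the I-E beta chain gene, had 10 to 14 counts in male M+Z+ embryos, 10, 3 and 11 in male M-Z+ embryos and 2, 5 and 12 in male M-Z- embryos, a difference of log2 -0.69 between M-Z- and M+Z+ (SE 0.536, adjusted p = 0.527). In females it had 4 to 11 counts (M+Z+), 1 to 6 counts (M-Z+) and 3 to 8 counts (M-Z-).

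Between M+Z+ females and M+Z+ males no member was called (0.0817% of 17139 genes, at a minimum log2 change of 0.3), with 3 members at an unadjusted p under 0.05 and 0 called by DESeq2. These were H2-D1 and H2-L, higher in females by log2 0.58 (adjusted p = 0.721 and 0.920), and H2-Aa, lower in females by log2 -1.17 (adjusted p = 0.935). With replicates 1 and 2 as the only M+Z+ females, the value of H2-D1 became log2 0.06, and that of H2-Aa -1.63.

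The second comparison asked from which parental allele the H2 RNA came. The deposited tables name reads with DBA/2J variants paternal and reads with 129 variants maternal, and both words are used here in that sense. They are labels of strain sequence: where the father's chromosome carries 129 sequence, as the linked stretch of a deleted allele made in 129 mice can, its reads are counted as maternal. Which of the H2 genes such a stretch covered was not tested. In M-Z- embryos these labels alone do not tell a silent paternal allele from a paternal chromosome of 129 sequence, and neither was tested. The share of counted reads that could be assigned was 97.9 to 100% for H2-Ab1, H2-Aa and H2-Eb1, 66.4 to 75.5% for H2-DMa, 74.1 to 86.5% for H2-K1, 41.5 to 54.5% for H2-D1 and 26.8 to 36.6% for H2-Q4. The P-score is the paternal share of these reads minus 0.5, given for embryos with more than 10 of them. In the female allelic table, 4 of the 6 M+Z+ embryos stand under 2 repeated header names and cannot be matched to replicates 3 to 6 by name, so they are called columns A, B, C and D here and enter only as M+Z+ females.

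M-Z- embryos had almost no class II reads with DBA/2J variants. Of H2-Ab1 they had 0 paternal reads in all 7 embryos, against 16, 24, 22 and 22 maternal reads in the females and 16, 47 and 12 in the males. By sex, 0 of 84 reads in females allows a paternal share of up to 3.57%, and 0 of 75 reads in males one of up to 4% (3 reads of the total, counting error only). The M-Z+ embryos, with the same kind of mother, had 18, 9 and 28 paternal against 7, 10 and 9 maternal reads in females, and 14, 9 and 18 against 8, 6 and 8 in males. Male M+Z+ embryos had 11, 16, 32 and 13 paternal against 7, 9, 13 and 8 maternal reads. Among these M-Z+ embryos and M+Z+ males paternal reads thus outnumbered maternal reads in 9 of 10 embryos.

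The M+Z+ females fell on both sides. Replicates 1 and 2 had 12 and 14 paternal against 6 and 16 maternal reads of H2-Ab1. Columns A to D had 0 paternal reads each, against 31, 28, 17 and 25 maternal reads. For this gene these 4 embryos had the same paternal count, 0, as the M-Z- embryos.

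**Figure D3:**
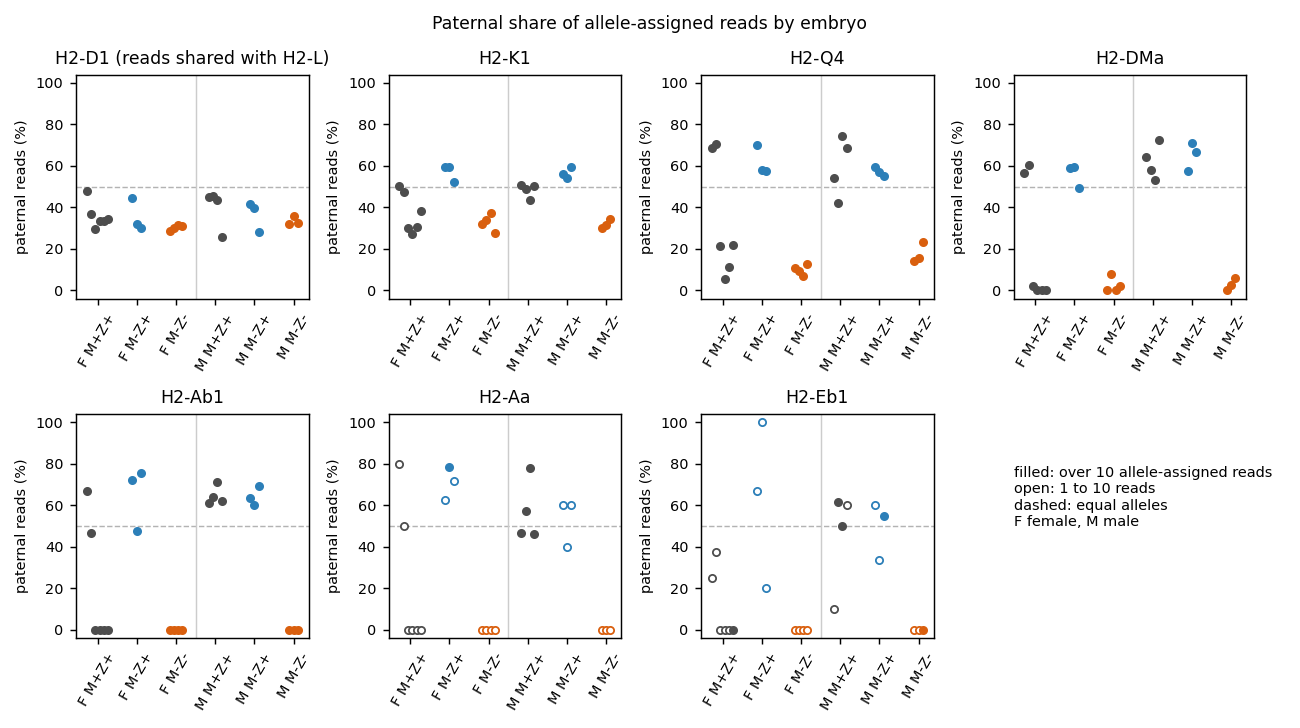
Paternal share of allele-assigned reads (percent, vertical axes) of 7 H2 genes in each embryo, by sex and genotype, with open symbols for embryos with 1 to 10 reads. For H2-Ab1, all 7 M-Z- embryos and 4 of the 6 M+Z+ females are at 0, while the other 12 embryos are between 46.7 and 75.7%.

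H2-DMa showed the same division. Paternal reads were 30, 26, 1, 0, 0 and 0 in the M+Z+ females (replicates 1 and 2, then columns A to D) against 23, 17, 43, 47, 41 and 50 maternal reads. They were 30, 37 and 27 in M-Z+ females against 21, 25 and 28 maternal reads, and 0, 2, 0 and 1 in M-Z- females against 50, 23, 30 and 46. In males, paternal and maternal reads were 47 and 26, 29 and 21, 17 and 15, and 39 and 15 in M+Z+ embryos, 30 and 22, 22 and 9, and 26 and 13 in M-Z+ embryos, and 0 and 20, 1 and 36, and 2 and 32 in M-Z- embryos. Over all embryos of a group, the paternal share was 1.97% in M-Z- females (3 of 152 reads, exact 95% interval 0.409 to 5.66%) and 3.30% in M-Z- males (3 of 91 reads, 0.685 to 9.33%).

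H2-Aa and H2-Eb1 had few reads, so their embryos were added up. Of H2-Aa, 0 of 12 reads in M-Z- females and 0 of 15 in M-Z- males were paternal, which allows shares of up to 25% and 20%, against 21 of 29 reads in M-Z+ females, 10 of 20 in M-Z+ males, 35 of 60 in M+Z+ males and 6 of 38 in M+Z+ females. All 6 paternal reads of M+Z+ females came from replicates 1 and 2. Of H2-Eb1, 0 of 20 and 0 of 19 reads in M-Z- females and males were paternal (up to 15% and 15.8%), against 6 of 12 in M-Z+ females, 13 of 24 in M-Z+ males, 22 of 47 in M+Z+ males and 4 of 41 in M+Z+ females. Here too the 4 paternal reads were in replicates 1 and 2.

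Of the class I genes among the members, H2-Q4 had the lowest paternal share in M-Z- embryos. Paternal and maternal reads were 5 and 41, 4 and 38, 3 and 41, and 5 and 35 in M-Z- females, and 4 and 24, 6 and 33, and 6 and 20 in M-Z- males. M-Z+ females had 26 and 11, 26 and 19, and 27 and 20, M-Z+ males 28 and 19, 20 and 15, and 26 and 21, and M+Z+ males 32 and 27, 11 and 15, 41 and 14, and 22 and 10. Every M-Z- embryo had a lower paternal share than every M-Z+ or male M+Z+ embryo. M+Z+ female replicates 1 and 2 had 26 and 12, and 24 and 10, and columns A to D 7 and 26, 1 and 17, 4 and 32, and 8 and 29. The pooled paternal share was 9.88% in M-Z- females (exact 95% interval 5.86 to 15.4%) and 17.2% in M-Z- males (10.17 to 26.4%).

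H2-K1 had paternal reads in every M-Z- embryo. The share was 27.6 to 37.1% in the 4 M-Z- females and 29.9 to 34.2% in the 3 M-Z- males, 52.2 to 59.5% in M-Z+ females, 53.9 to 59.5% in M-Z+ males and 43.8 to 50.7% in M+Z+ males. The 3 male groups did not overlap, and neither did M-Z- and M-Z+ females. Among M+Z+ females, replicates 1 and 2 were at 50.5 and 47.5%, and columns A to D at 29.9, 27.4, 30.3 and 38.2%. H2-D1, with H2-L, was the member whose share differed least between genotypes, with pooled shares of 34.5% (M+Z+), 35.3% (M-Z+) and 30.3% (M-Z-) in females and of 41.2, 35.7 and 33.2% in males.

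The allelic difference between genotypes was tested across all genes with enough reads. In males, M-Z- embryos had a lower P-score than M+Z+ embryos at 4 of the 6 tested members, beside 2.54% of 6423 genes called (2.43% with the lower paternal share in M-Z-). The differences of mean P-scores were -0.65 for H2-Ab1 (adjusted p = 2.2e-06), -0.59 for H2-DMa (adjusted p = 3.0e-06), -0.42 for H2-Q4 (adjusted p = 0.0012) and -0.17 for H2-K1 (adjusted p = 0.0002), while H2-D1 and H2-L differed by -0.07 (adjusted p = 0.784). The groups of 4 and 3 did not overlap for the 4 genes, and the two-sided exact permutation p was 0.0286 for each, the smallest that these numbers allow. Against male M-Z+ embryos the same 4 members were called (2.27% of genes, 2.16% with the lower share in M-Z-), with -0.64 for H2-Ab1, -0.62 for H2-DMa, -0.40 for H2-Q4 and -0.25 for H2-K1 (adjusted p = 6.7e-06, 6.7e-06, 0.0060 and 4.2e-06). There the exact permutation test cannot go below 0.1. Of the 163 and 146 genes called in these 2 comparisons, 136 and 128 lie on chromosome 17, which holds 357 of the 6423 genes tested. Between M-Z+ and M+Z+ males no member was called (0.171% of genes, 1 member at an unadjusted p under 0.05).

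In females no member was called in the 3 genotype comparisons of the alleles by edgeR (0.402% of 6468 genes for M-Z- against M+Z+, 0.186% for M-Z+ against M+Z+ and 0.232% for M-Z- against M-Z+), with 1, 3 and 4 of 6 members at an unadjusted p under 0.05. M-Z- and M-Z+ females nevertheless did not overlap for 4 members. The P-score differences were -0.65 for H2-Ab1 (adjusted p = 0.151), -0.53 for H2-DMa (adjusted p = 0.187), -0.52 for H2-Q4 (adjusted p = 0.0946) and -0.24 for H2-K1 (adjusted p = 0.0613), with an exact permutation p of 0.0286 each. When the fit held only the M-Z- and M-Z+ females, a setting added after seeing the data, the 4 members were called (adjusted p = 1.9e-06 to 3.0e-06 for H2-Ab1, H2-Q4 and H2-K1 and 3.6e-07 for H2-DMa). The M+Z+ females, whose P-scores of H2-Ab1 had an SD of 0.299 (n = 6), share the estimate of the spread in the fit of all 3 genotypes. Between M-Z+ and M+Z+ females it was 0.461 for H2-Ab1, 0.360 for H2-DMa, 0.287 for H2-Q4, 0.197 for H2-K1 and -0.00358 for H2-D1. Of these genes only H2-K1 did not overlap there (exact permutation p = 0.0238). The difference between M-Z- and M+Z+ females was -0.19 for H2-Ab1, -0.17 for H2-DMa, -0.23 for H2-Q4 and -0.05 for H2-K1.

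Replicates 1 and 2 as the only M+Z+ females gave another picture of that comparison. The P-score differences were then -0.57 for H2-Ab1, -0.56 for H2-DMa, -0.60 for H2-Q4 and -0.16 for H2-K1, and 4 members were called. This setting was also chosen after seeing the data, and the 4 embryos it leaves out are those with 0 paternal reads of H2-Ab1, so it also separates embryos by the measured outcome and is given as a description only.

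Females and males were then set against each other in the shift from M+Z+ to M-Z-. For H2-Ab1 it was -0.19 in females and -0.65 in males, a difference of 0.456 (exact permutation test over 7350 regroupings within genotype, p = 0.0238, adjusted over the 5 genes tested 0.084). For H2-DMa the difference was 0.417 (exact p = 0.0336, adjusted 0.084), for H2-K1 0.119 (exact p = 0.0699), for H2-Q4 0.192 (exact p = 0.290) and for H2-D1 0.0115 (exact p = 0.836). None passed the adjustment. The M-Z- embryos of both sexes were alike at 0 paternal reads of H2-Ab1, and 0 paternal reads were also counted in columns A to D of the M+Z+ females, but in no M+Z+ male.

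**Figure D4:**
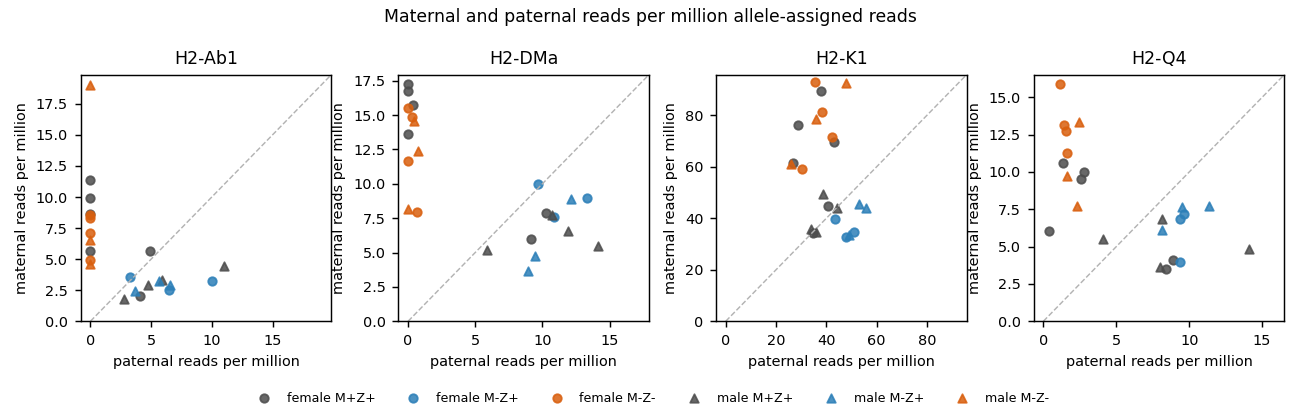
Maternal (vertical axes) against paternal (horizontal axes) output in reads per M allele-assigned reads in each embryo for H2-Ab1, H2-DMa, H2-K1 and H2-Q4, with circles for females, triangles for males and a dashed line at equal alleles. For H2-Ab1 the 7 M-Z- embryos and 4 M+Z+ females lie on the line of 0 paternal reads, with 4.65 to 19 maternal reads per M.

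Reads with 129 variants, named maternal output here, were looked at on their own, per M allele-assigned reads. If both chromosomes of M-Z- embryos carried 129 sequence there, these reads would come from both parents. They were higher in male M-Z- than in male M+Z+ embryos for 5 of the 7 genes (H2-L aside), with no overlap and an exact permutation p of 0.0286 each, the smallest possible. Maternal H2-K1 was at 61.0, 78.8 and 92.5 reads per M in M-Z- and at 34.7, 35.8, 49.5 and 43.9 in M+Z+ males, a ratio of means of 1.89. For H2-D1 the means were 51.7 ± 7.86 (SD, n = 3) and 25.0 ± 4.45 (SD, n = 4), for H2-Q4 10.28 ± 2.83 and 5.20 ± 1.35, for H2-DMa 11.7 ± 3.27 and 6.23 ± 1.19, and for H2-Ab1 10.05 ± 7.80 and 3.12 ± 1.11. The ratio was thus 2.07 for H2-D1 and 3.22 for H2-Ab1, whose total level was not called (log2 0.10, adjusted p = 0.94, and log2 -0.78, adjusted p = 0.537, without M-Z- replicate 2). The H2-Ab1 ratio fell to 1.79 without M-Z- replicate 2, still with no overlap, and was 2.82 to 4.09 without any other single embryo. The other two genes, with few reads, overlapped: H2-Aa was at 1.97 and 2.04 reads per M (ratio 0.968, exact permutation p = 0.886) and H2-Eb1 at 2.49 and 1.996 (ratio 1.25, exact permutation p = 0.771). Male M-Z+ embryos had means of 41.1, 26.8, 7.15, 5.77 and 2.86 for H2-K1, H2-D1, H2-Q4, H2-DMa and H2-Ab1, and overlapped the M+Z+ males for each.

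Paternal output was looked at in the same way. Paternal H2-K1 was at 36.7 ± 11.01 reads per M in M-Z- males and 38.1 ± 4.49 in M+Z+ males (exact permutation p = 0.886), but at 52.8 ± 3.34 in M-Z+ males, above every M+Z+ male (exact permutation p = 0.0286). Paternal H2-D1 was at 25.8 ± 3.34 in M-Z- and 17.2 ± 6.14 in M+Z+ males (exact permutation p = 0.0857). For H2-Q4 and H2-DMa, paternal means were 2.12 and 0.393 in M-Z- against 8.56 and 10.7 in M+Z+ males, without overlap (exact permutation p = 0.0571 for each). Thus the lower paternal share of H2-K1 in M-Z- males went with more maternal reads.

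In females, maternal reads of M-Z- embryos overlapped those of M+Z+ embryos for 6 of the 7 genes, with ratios of 1.14 for H2-D1, 1.22 for H2-K1, 1.00 for H2-Ab1, 0.971 for H2-DMa, 0.525 for H2-Aa and 0.821 for H2-Eb1 (exact permutation p = 0.281 to 0.986), and H2-Q4 alone did not overlap (ratio 1.82, exact permutation p = 0.0190). M-Z- females were also compared with M-Z+ females. Maternal H2-K1 was at 76.3 ± 14.2 reads per M in M-Z- females (n = 4) and 35.7 ± 3.601 in M-Z+ females (n = 3), a ratio of 2.14, with no overlap (exact permutation p = 0.0286). Maternal H2-D1 was at 46.4 ± 7.73 and 25.9 ± 7.36, and maternal H2-Q4 at 13.3 ± 1.93 and 5.99 ± 1.75, each without overlap and with the same exact p. Maternal H2-Ab1 was at 7.22 ± 1.63 and 3.11 ± 0.543 (exact permutation p = 0.0571), and maternal H2-DMa at 12.5 ± 3.47 and 8.86 ± 1.22, with overlap (exact permutation p = 0.171). H2-Aa (ratio 1.02, exact permutation p = 1) and H2-Eb1 (ratio 2.46, exact permutation p = 0.2) overlapped as well. Paternal H2-K1 was 36.7 ± 5.03 in M-Z- and 47.3 ± 3.83 in M-Z+ females (exact permutation p = 0.0571). Among the M+Z+ females, maternal H2-K1 was at 34.2 and 44.98 in replicates 1 and 2 and at 61.7 to 89.3 in columns A to D. In all, 36 exact tests of P-scores were run over the members, and neither these p-values nor those of maternal and paternal output were adjusted.

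Within M+Z+ embryos the alleles were compared with each other. In females, 5 of the 6 tested members were called for unequal alleles, all with fewer paternal reads (18.6% of 6468 genes called). Mean P-scores were -0.31 for H2-Ab1, -0.30 for H2-DMa, -0.14 for H2-D1 and H2-L and -0.13 for H2-K1 (adjusted p = 0.0362, 0.0261, 2.8e-05, 2.8e-05 and 0.0008). In males 2 were called, H2-Ab1 and H2-DMa, both with more paternal reads (mean P-scores 0.15 and 0.12, adjusted p = 0.0347 and 0.0425, 17.2% of 6423 genes called). H2-D1, with H2-L, leaned the other way in males (mean P-score -0.0993, adjusted p = 0.0332) and missed only the minimum size of 0.1. With 1 of the 4 males left out in turn, H2-Ab1 was called in no fit (adjusted p = 0.0598 to 0.211), and H2-DMa only in the fit without replicate 3 (adjusted p = 0.0353 to 0.236 over the 4 fits). In females the calls of H2-Ab1 and H2-DMa were lost without any one of columns A to D (adjusted p = 0.0785 to 0.0993 and 0.0707 to 0.0773). Thus these 2 genes leaned to opposite alleles in M+Z+ females and males, a difference between the sexes that was not tested. With replicates 1 and 2 as the only M+Z+ females, the values of both genes were positive, as in males.

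**Figure D5:**
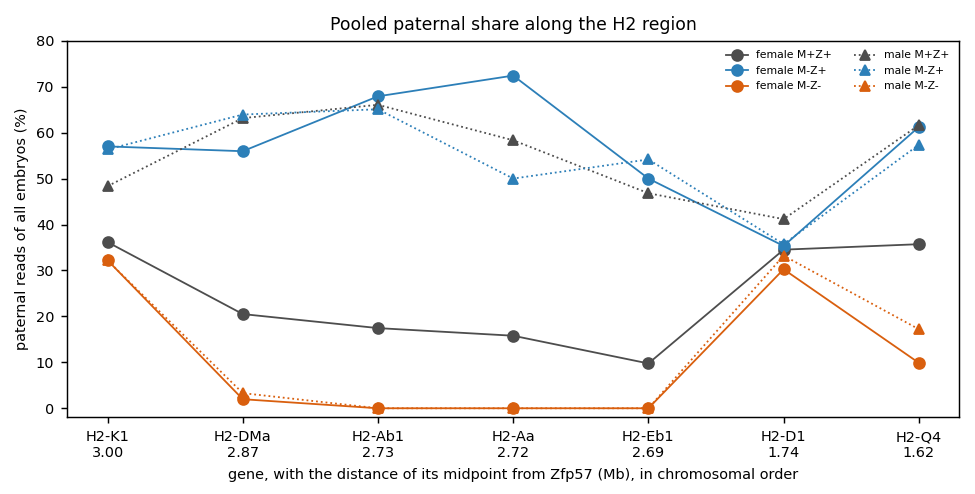
Pooled paternal share (percent of allele-assigned reads of all embryos of a group, vertical axis) of 7 H2 genes in chromosomal order (horizontal axis, with the distance from Zfp57 in Mb), with lines joining the genes of a group. In M-Z- embryos the 4 genes from H2-DMa to H2-Eb1 were at 0 to 3.30%, with H2-K1 (32.2% in both sexes) and H2-D1 (30.3 and 33.2%) above them on either side.

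The members lie in the order H2-K1 (chr17:34132957-34137292, minus strand), H2-DMa (chr17:34259777-34276046, plus), H2-Ab1 (chr17:34400172-34406363, plus), H2-Aa (chr17:34419689-34424768, minus), H2-Eb1 (chr17:34442812-34453619, plus), H2-D1 and H2-Q4 (chr17:35516562-35521619, plus), all before Zfp57 (chr17:37138108-37147674, plus) in mm9. In M-Z- embryos the pooled paternal share did not change evenly with the distance from Zfp57. It was 9.88 and 17.2% (females and males) at H2-Q4, 1.62 Mb away, 30.3 and 33.2% at H2-D1, 1.74 Mb away, 0% at H2-Eb1, H2-Aa and H2-Ab1, 2.69 to 2.73 Mb away, 1.97 and 3.30% at H2-DMa, 2.87 Mb away, and 32.2% at H2-K1, 3.0 Mb away. Beyond the 3 paternal reads of H2-DMa in each sex, the members with paternal reads in M-Z- embryos were class I genes, whose heavy chains are similar in sequence to those of other class I genes. H2-K2, a class I gene that is no member, had 0 paternal reads of 99 in M-Z- females and of 137 in M-Z- males, whereas H2-Q10, another such gene, had 201 paternal against 162 maternal reads in M-Z- females and 142 against 103 in M-Z- males. Whether reads of one class I gene or haplotype were placed on another was not tested.

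Genes that work with class I and class II molecules were described from lists that were chosen with earlier results of these data known. No gene of these lists was called for a change of expression in any of the 6 genotype comparisons: 20 tested other class I genes, 14 class I assembly genes, 8 class II assembly genes, 18 to 20 interferon response genes, and no other class II gene, since none of the 6 in the tables had enough reads. In male M-Z- against M+Z+ embryos, the median log2 change was 0.66 over the 4 class I members (0.46 without H2-L, which repeats H2-D1) and -0.54 over the 4 class II members, beside 0.16 over the other class I genes, -0.02 over class I assembly, -0.06 over class II assembly, 0.12 over the interferon response genes and 0.00 over all genes tested. In females these medians were 0.05 (0.14 without H2-L), -0.38 (2 class II members tested), -0.19, -0.03, -0.05, -0.02 and -0.00. B2m, the shared light chain of class I molecules on another chromosome, was at 57.2 ± 5.93 CPM in M+Z+ and 49.6 ± 8.48 CPM in M-Z- males, a difference of log2 -0.17 (adjusted p = 0.419), and of log2 -0.04 in females (adjusted p = 0.924). Cd74, the invariant chain that escorts class II molecules, differed by log2 -0.25 in males (adjusted p = 0.781) and -0.61 in females (adjusted p = 0.336). Ciita, the transactivator of class II genes, was at 0.114 to 0.276 CPM and was not tested, and Nlrc5, its counterpart for class I genes, was at 0.196 to 0.430 CPM in the group means.

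For the allelic shift between M-Z- and M+Z+ males, 3 of 6 tested class I assembly genes and 2 of 8 tested other class I genes were called, all with fewer paternal reads, and in females none of 6 and of 7 was called. Over all genes 2.54% were called in males and 0.402% in females, and on chromosome 17, 136 of 357 in males and 0 of 359 in females. The 3 assembly genes were Tap1, Tap2 and Tapbp. Tap1 and Tap2 encode the peptide transporter that feeds class I molecules, and Tapbp tapasin, which links the transporter to class I molecules. In males, M-Z- embryos had 0 paternal reads of the 3 genes, against 88, 105 and 619 maternal reads, and P-score differences from M+Z+ of -0.52, -0.49 and -0.52 (adjusted p = 0.0001, 3.0e-05 and 2.4e-12). M-Z- females also had 0 paternal reads of them, against 138, 125 and 1129 maternal reads, but their P-score differences from M+Z+ females of -0.18, -0.14 and -0.18 were not called (adjusted p = 0.815, 0.866 and 0.815). Total levels of these genes were not called: Tapbp was at 24.4 ± 4.83 CPM in M-Z- and 26.9 ± 0.870 CPM in M+Z+ males (log2 -0.11, adjusted p = 0.612), and Tap1 at 3.81 ± 0.0896 and 3.21 ± 0.687 CPM (log2 0.29, adjusted p = 0.491). Psmb8, an immunoproteasome subunit, had 0 paternal reads of 41 in M-Z- males and 26 of 40 in M+Z+ males. H2-K2 and H2-Q10 were the other class I genes called, with P-score differences of -0.23 (adjusted p = 0.0337) and -0.21 (adjusted p = 0.0030) between M-Z- and M+Z+ males. B2m was near equal between alleles in every group, with mean P-scores of -0.042 to -0.013.

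Class I and II genes are highest in cells of the immune system, so markers of such cells were given beside the members. All 12 macrophage markers in the tables were above 0 in every embryo, and their summed level was 174 to 222, 179 to 197 and 190 to 230 CPM in females (M+Z+, M-Z+, then M-Z-) and 193 to 229, 193 to 201 and 115 to 265 CPM in males. The lowest sum, 115 CPM, was that of male M-Z- replicate 2, the embryo with the highest H2-Ab1 level, and replicates 1 and 3 had 193 and 265 CPM. That embryo also had the highest level of Hbb-bh1, an embryonic globin gene (532 CPM, against 221 and 59.1 CPM in replicates 1 and 3 and 19.99 to 63.0 CPM in M+Z+ males), and H2-D1 and H2-L were called against M+Z+ males without it too. Of 15 other leukocyte markers, 9 to 11 were above 0 in every embryo of a group, with sums of 49.97 to 64.3 CPM outside the male M-Z- group and 35.5 to 62.7 CPM in it. Of the B and T cell markers, Ms4a1, Cd3e and Cd8a were at 0 to 6 counts per embryo and Cd79a at 0 to 10, while Cd79b (5 to 25 counts), Cd4 (1 to 11) and Il7r (1 to 15) were seen in every embryo. No marker of either list was called, with median changes of log2 -0.04 and -0.15 in male M-Z- against M+Z+ embryos. In whole embryos, fewer cells of a type and less RNA per cell cannot be told apart, and the part of cell composition in the H2 values was not tested. Placenta and decidua markers summed to 0.0660 to 0.576 CPM, with at most 9 counts of any, and all 13 embryo tissue markers were above 0 in every embryo. None of the 13 was called between M-Z- and M+Z+ embryos of either sex. Alb, the liver's albumin gene, was at 629, 542 and 1542 CPM in M-Z- males, against 1709 to 2778 CPM in M+Z+ and 1643 to 2146 CPM in M-Z+ males, with no overlap. The part of these markers in the H2-D1 values was not tested.

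The genes whose levels followed the members most closely over the 13 females were sought by Pearson r of log2 levels among 15435 other genes. For the mean of the class I members they were Mrvi1 (r = 0.87), Creld2 (0.86) and Zfp672 (0.83), with r of -0.00, 0.32 and -0.16 in the 10 males. For the mean of the class II members they were Rgs10 (0.93), Hivep2 (0.93) and Daam1 (0.90), with 0.62, 0.71 and 0.55 in males. The class I mean includes H2-L, which repeats H2-D1, and the class II mean includes H2-Aa and H2-Eb1, which had few counts. The 13 females were of 3 genotypes, so embryos of a group share their genotype, and the highest values of so many genes describe these females only.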

How the data were processed

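RNA was extracted from whole E13.5 embryos (TruSeq libraries). The authors trimmed the reads, aligned unique reads to mm9 with STAR 2.7.8a and counted them by strand with featureCounts (Subread 2.0.1), each read for every gene it overlapped. The deposited values were raw counts per gene, and raw counts of maternal and paternal reads, assigned after alignment to a genome masked at strain differences. Reads that differ from mm9 may align less often, and this was not tested. The members and lists were chosen with earlier results of these data known. All 8 members and Zfp57 are named whatever their values, as are B2m, Cd74, Ciita, Nlrc5, Tap1, Psmb8 and up to 5 called genes of each list. Counts were tested in R 4.3.3 with edgeR 4.0.16 (glmQLFit, TMM, filterByExpr, 1 fit per sex, Benjamini-Hochberg adjustment), checked on simulated data. Allele counts were tested in the same way with embryo effects, for autosomal genes averaging at least 20 allele reads, and called where the adjusted p was under 0.05 and mean P-scores were 0.1 or more apart. Under the repeated headers, each paternal column was read with the maternal column beside it. Permutation tests (SciPy 1.17.1) were exact and two-sided on differences of means. Alternatives were DESeq2 1.42.0, other scaling, filters and thresholds, and leaving out each embryo. The labels do not name litters, so p-values measure the spread between embryos. Intervals and floors cover counting error only.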

Additional observations from a re-analysis of the deposited data

Results flagged for a closer look

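Of 43 groups of values examined for a single sample far from the others, which chance alone gives in about 1 of 20 groups, 3 held one. The P-score of H2-D1 in male M+Z+ replicate 4 was -0.242, against -0.0633 to -0.0439 in the other 3 embryos, and H2-L, which counts the same reads, had the same value of -0.242. The H2-DMa level in male M+Z+ replicate 3 was 3.02 CPM, against 4.04 to 4.11 CPM in the other 3. The P-score shift between M-Z- and M+Z+ embryos differed between females and males by 0.456 for H2-Ab1 (exact permutation p = 0.0238, adjusted over 5 genes 0.084) and by 0.417 for H2-DMa (exact permutation p = 0.0336, adjusted 0.084). Both differences pass an unadjusted threshold only, and both rest on the 4 M+Z+ females under repeated header names.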

How the results depend on the processing

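Of 16 counts of called members, 7 were within 1.5 times the reported count under every alternative run. The expression count in M-Z- against M+Z+ males was 2, fell to 1 with only the 2 compared groups, and was 1 to 2 when an embryo was left out. In M-Z- against M-Z+ males it was 0, 2 by DESeq2, and 0 to 1 without single embryos (1 without M-Z- replicate 3). Allelic counts in females were 0 and became 4 with M+Z+ replicates 1 and 2 only and 1 by the exact Kruskal-Wallis test (M-Z- against M+Z+), 2 by that test and 0 to 1 without single embryos (M-Z+ against M+Z+; 1 without M+Z+ replicate 1), and 1 with a library size per allele, 4 with only the 2 groups and 2 by Kruskal-Wallis (M-Z- against M-Z+). The 2-group allelic fits, the fits with replicates 1 and 2 only, the maternal ratios without single embryos and the class I medians without H2-L were added after seeing the data. Unequal alleles in M+Z+ females gave 5 members, 3 at a mean of at least 50 reads, 1 with replicates 1 and 2 only, and 3 to 6 without single embryos (3 without any of columns A to D). In the last but one setting H2-DMa and H2-Ab1 reversed, to mean P-scores of 0.0853 and 0.0667. H2-Q4, not called over all 6 embryos (mean P-score -0.169), had P-scores of 0.184 and 0.206 in replicates 1 and 2. In males, both allelic counts of 4 fell to 1 at a mean of at least 50 reads, which leaves out members with fewer reads, and that against M-Z+ was 3 to 4 without single embryos (H2-Q4, adjusted p = 0.0531 without M-Z- replicate 2). Unequal alleles in M+Z+ males gave 2, 4 with no minimum P-score, 0 at 50 reads, 1 at 5 reads, and 0 to 3 without single embryos (0 without replicate 4, 1 without replicate 3). The causes of the other changes were not tested.

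Replicate numbers shared by groups did not pair the embryos: of 19 same-numbered pairs, 4 had a correlation over 0.1 (range -0.302 to 0.467). With the replicate number as a block, the counts of called members were 0, 0, 0, 2, 0 and 0 in the 6 expression comparisons and 0 for the sex difference, as without it. Allelic fits held an effect for each embryo. Depth limits H2-Aa, H2-Eb1 and H2-Ab1, of which embryos had 1 to 47 counts.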
